A study of Danio rerio with 6 samples.

Results

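A set of 141 zebrafish genes was abundant in both the pineal gland and the eye and scarce in a mixture of other organs. It was drawn from the 32105 genes of the deposited table by levels alone, on y = log2(FPKM + 1), where FPKM is fragments counted per unit of gene length and of library size. A member had at least 20 FPKM in all 4 pineal and eye libraries, its lowest y there lay at least 3 above its highest y in the 2 mixed libraries, and its mean y in the pineal gland lay within 2 of that in the eye. Of 2348 genes with at least 20 FPKM in the 4 libraries, 195 also passed the gap to mixed tissue and 165 the bound between pineal gland and eye. Of these, 24 were left out because their symbols start like those of opsins, transducin alpha subunits, phosphodiesterases, arrestins, recoverins, cyclase activators, retinoid-binding proteins, crystallins and cryptochromes, channels, homeobox factors and acetyltransferases. Pineal against mixed tissue, eye against mixed tissue and pineal gland against eye were thus all used to choose the members, and the members' values in those comparisons are given as description, with no test. Night was not compared with day by the rule. The minimum and the gap still had to hold in the day and the night libraries alike, which limits how far a member could fall at either time.

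The libraries came from adult fish of the Tg(aanat2:EGFP) line, 0.5 to 1.5 years old, raised in cycles of 12 h light and 12 h dark. In this line regulatory regions of aanat2 drive a green fluorescent protein in the pineal gland, which guided the dissection, and all 3 tissues carry the transgene. Poly-A RNA was sequenced once per tissue at mid-day (ZT6) and once at mid-night (ZT18). A pineal library pooled 18 glands and an eye library 6 whole eyes, lens and pigment epithelium included. A mixed library joined RNA of 8 organs in equal parts (ovary, muscle, liver, kidney, intestine, gill, heart and brain), with 4 to 8 of each organ; whether the brains still held the pineal gland is not stated in the labels. Each of the 6 libraries is therefore 1 pool, and a tissue's 2 libraries differ in time. Since mixed tissue averages 8 organs, a gene used in only 1 of them shows a lower level there than in that organ. A low mixed level therefore does not show that a gene is scarce in every organ of the mix.

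The zebrafish pineal gland lies under a translucent part of the skull and holds photoreceptor cells that detect light directly and make melatonin at night. These cells and the rods and cones of the retina share a plan: an outer segment built on a cilium, where opsins signal through a G protein to lower cyclic GMP, and a terminal that releases glutamate continuously at ribbon synapses. Many zebrafish genes exist as a pair of copies from a genome duplication in the ancestors of bony fish, and the copies can be used in different tissues.

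Depth ran from 7949224 reads in the pineal night library to 15950819 in the mixed night library, as recovered from the steps of the FPKM values. The members took 4.20% and 4.36% of the reads in the pineal day and night libraries, 3.28% and 3.13% in the eye and 0.0650% and 0.0634% in mixed tissue. Some marker genes went with the tissue labels and others did not. ASMT (ENSDARG00000098249), the last enzyme of melatonin synthesis, was at 2814 and 2283 FPKM in the pineal gland against 27.6 and 39.4 in the eye. The summed FPKM of 12 lens genes was 1650 by day and 707 at night in the eye, and 13.9 and 10.9 in the pineal gland. GAD1 (ENSDARG00000027419), of inhibitory inner retinal neurons, was at 282 and 229 FPKM in the eye and 1.01 and 1.01 in the pineal gland. The sum of 23 inner retinal genes was less far apart, at 1903 and 1844 in the eye and 960 and 677 in the pineal gland. That of 16 pigment epithelium and melanocyte genes was higher in the pineal gland (663 and 907) than in the eye (260 and 592). Counted by gene, the list leaned to the eye. Of its 15 genes outside the set, limma called 3 higher in the pineal gland and 6 higher in the eye. Their median log2 difference, pineal minus eye, was -0.75. Of all genes, 9.25% and 14.1% were called in these directions. In such bulk samples, fewer cells of a type and less RNA per cell cannot be told apart.

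Of the members 137 have a gene symbol. By what is known of them, 20 were grouped under light transduction, G proteins and cyclic nucleotides, here called transduction. Another 5 were grouped under retinoids or similar ligands, and 22 belong to the outer segment, its cilium or the cell's polarity. The synapse and excitability had 21, energy and nucleotide metabolism 11, and 3 are transcription factors. A further 31 have a symbol outside these roles, 24 carry only a clone name and 4 have no symbol. Over all members the median level was 79.2 FPKM in the pineal gland, 68.3 in the eye and 0.617 in mixed tissue. Members with no read at all in mixed tissue were NXNL1 (ENSDARG00000052035), the clone-named zgc:112294 and a gene with no symbol. The members' gene lengths (median 2265 bases) were close to those of the 2348 genes above 20 FPKM (median 2362).

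**Figure D1:**
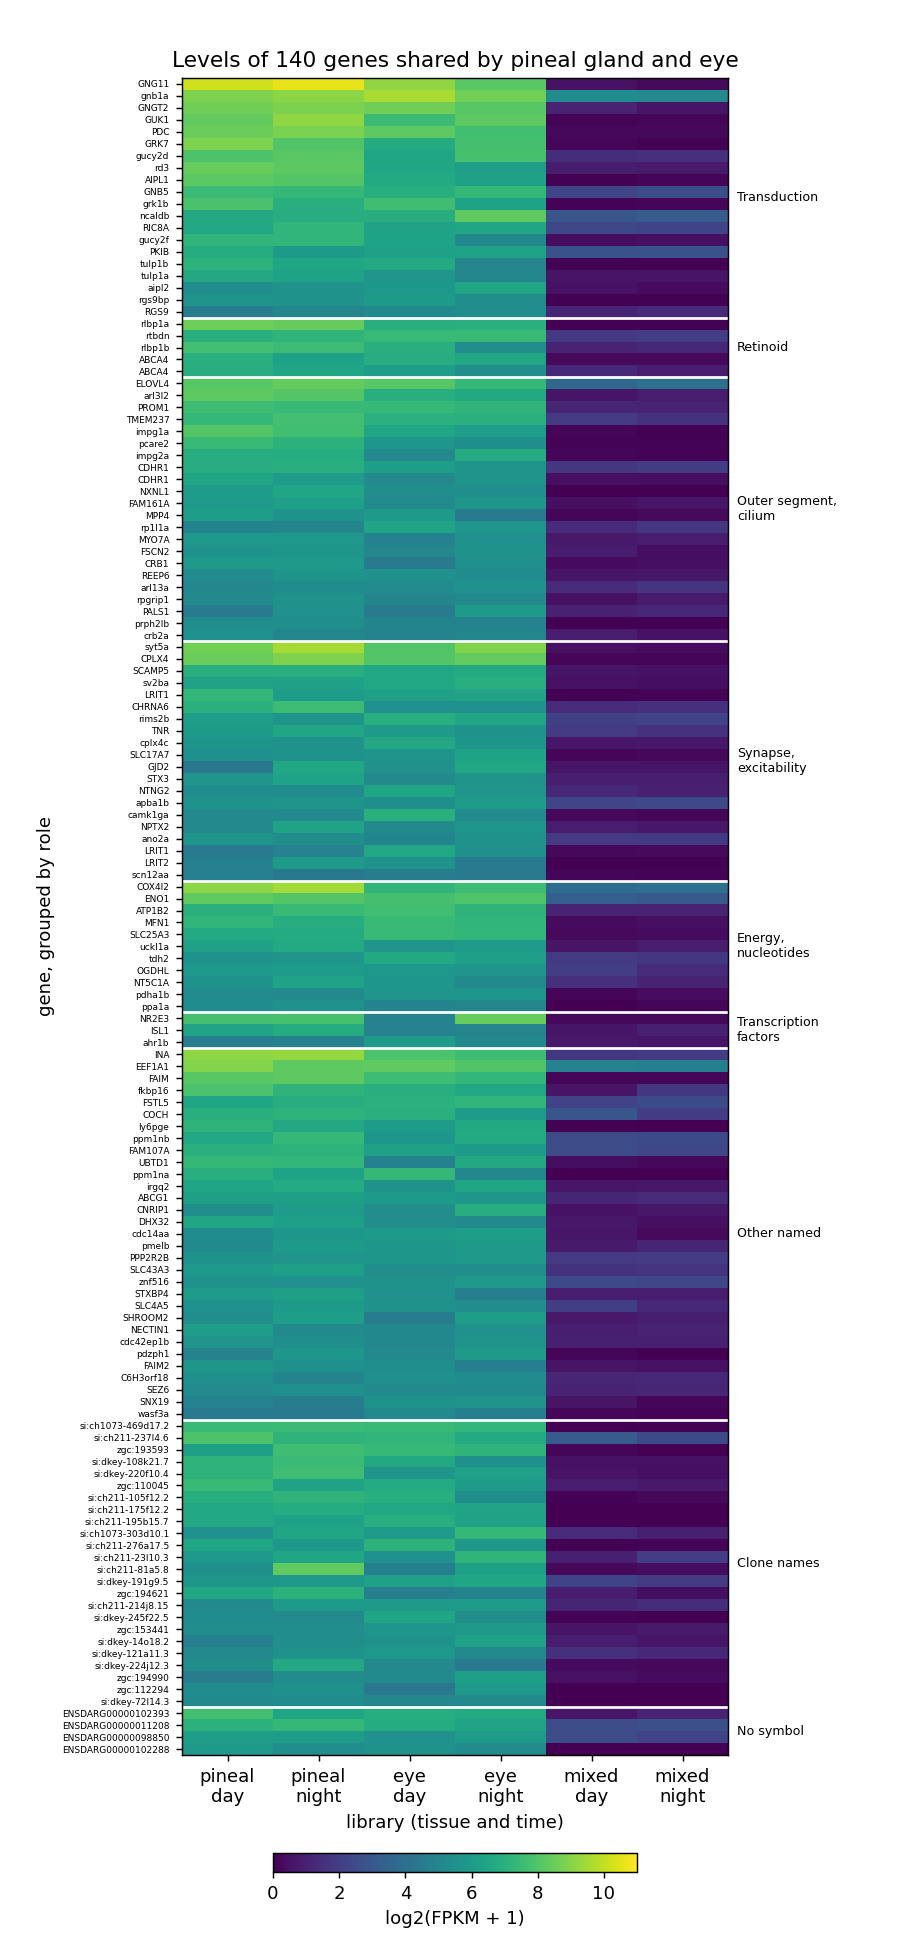
Heat map of log2(FPKM + 1) for 140 of the members (rows, grouped by role and ordered by level) in the 6 libraries (columns). Within each row the 4 pineal and eye columns are brighter than the 2 mixed columns, as the rule requires. The members with the brightest mixed columns are gnb1a, EEF1A1, ELOVL4 and COX4I2.

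Pairs of values below are the day and the night library. The transduction genes were the highest group, with a median of 171 FPKM in the pineal gland and 115 in the eye. GNG11 (ENSDARG00000035798), a G protein gamma subunit, had the highest mean level of all members, with 1186 FPKM by day and 1591 at night in the pineal gland, 569.8 and 288 in the eye, and 0.415 and 0.204 in mixed tissue. The beta subunit gene gnb1a stood at 471 and 543 in the pineal gland, 767 and 398 in the eye and 39.9 and 37.5 in mixed tissue, the highest mixed level of any member. GNGT2 (ENSDARG00000010680), the gamma subunit of cone transducin in mammals, was close to even, at 393 and 456 FPKM in the pineal gland and 391 and 281 in the eye. Phosducin, which binds beta and gamma subunits, was present as PDC (ENSDARG00000017634) at 361 and 437 against 313 and 200.2.

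The genes that shut the signal off were members too. GRK7 (ENSDARG00000020602) and grk1b encode opsin kinases; GRK7 was at 473 and 261 FPKM in the pineal gland and 107 and 218 in the eye, grk1b at 225 and 120.1 against 199 and 81.3. RGS9 (ENSDARG00000045156), rgs9bp and GNB5 (ENSDARG00000055377) form the complex that speeds the G protein's return to rest. They differed in level: RGS9 lay between 24.1 and 40.5 FPKM over the 4 libraries, rgs9bp between 40.6 and 62.5, and GNB5 between 121 and 177.

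Cyclic GMP is made by the guanylate cyclases gucy2d, at 245 and 289.7 FPKM in the pineal gland and 86.5 and 218 in the eye, and gucy2f, at 145 and 150.4 against 81.9 and 33.9. Their partner rd3, which in mammals holds the cyclases inactive on the way to the outer segment, was at 347 and 299.7 in the pineal gland and 94.6 and 68.7 in the eye. That placed rd3 just inside the bound between the tissues, with a pineal minus eye difference of 1.99 on the log2(FPKM + 1) scale. The guanylate kinase GUK1 (ENSDARG00000005776) recycles the nucleotide. It had 331 and 576 FPKM in the pineal gland, 178 and 308 in the eye and only 0.0794 and 0.156 in mixed tissue. AIPL1 (ENSDARG00000075067), a chaperone of the phosphodiesterase, lay higher in the pineal gland (296 and 265) than in the eye (106 and 76.7), whereas its relative aipl2 had 40.1 and 47.9 against 57.0 and 89.4. RIC8A, a chaperone of G protein alpha subunits, and ncaldb, a calcium sensor, completed the group together with tulp1a, tulp1b and PKIB.

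Among the 5 retinoid genes, rlbp1a and rlbp1b encode carriers of 11-cis-retinal, known from pigment epithelium and Müller glia of the retina. rlbp1a was at 383 and 341 FPKM in the pineal gland and 117 and 127 in the eye, and 1 read was counted in each mixed library. For rlbp1b the values were 209 and 184 in the pineal gland and 118.8 and 40.5 in the eye. Both ABCA4 genes, flippases that clear retinal from the disc membranes, were members. ABCA4 ENSDARG00000062661 was even between the tissues (difference -0.10) and ENSDARG00000057169 higher in the pineal gland (0.87). The other member placed here by hand, rtbdn, was between 124 and 174 FPKM.

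The outer segment and cilium group was led by ELOVL4 (ENSDARG00000027495), which lengthens the very long fatty acids of disc membranes, at 282 and 333 FPKM in the pineal gland and 284 and 158 in the eye. Mixed tissue held 11.9 and 15.4, and which of its organs gave this level was not tested. PROM1 (ENSDARG00000034007) and 2 CDHR1 genes, which act where new discs form, ranged from 35.6 to 189.7 FPKM over the 4 libraries. The matrix proteoglycan impg1a was at 269 and 206 in the pineal gland and 89.7 and 69.6 in the eye; impg2a, its relative, at 115 and 110.1 against 35.0 and 109. The cilium genes TMEM237 (ENSDARG00000041735), FAM161A, rpgrip1, arl13a, arl3l2 and pcare2 lay between 32.2 and 304 FPKM. Members of the polarity complex that shapes the photoreceptor's adherens junctions were CRB1 (ENSDARG00000100506), crb2a, PALS1 (ENSDARG00000004721) and MPP4, all between 22.7 and 70.8 FPKM. Of the 22 genes 19 were higher in the pineal gland by any amount, and rp1l1a, a microtubule protein of the outer segment, was lower by more than 2-fold (-1.12 on the log2 scale).

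Synaptic members included syt5a, a calcium sensor of vesicle release, with 405 and 722 FPKM in the pineal gland, 255 and 478 in the eye and 0.415 and 0.273 in mixed tissue. CPLX4 (ENSDARG00000059978), a complexin of ribbon synapses, had 359 and 466 against 265 and 329; its gap to mixed tissue, 7.89, was the largest of all members. Release genes also included STX3, rims2b, sv2ba, SCAMP5, cplx4c and the glutamate transporter gene SLC17A7 (ENSDARG00000090106), which lay between 34.9 and 121 FPKM. Potassium, calcium and cyclic nucleotide-gated channel genes were left out of the set by their symbols. Receptors, other channels and junctions among the members were the nicotinic subunit CHRNA6, the chloride channel ano2a, the sodium channel scn12aa and the connexin GJD2 (ENSDARG00000070781). A further 3 members, 2 LRIT1 genes and LRIT2, encode leucine-rich membrane proteins, of which LRIT1 is known at photoreceptor synapses in mice.

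Energy genes ranged from the respiratory chain subunit COX4I2, at 551 and 718 FPKM in the pineal gland and 146 and 193 in the eye, to ppa1a, a pyrophosphatase, between 30.1 and 48.9. ENO1 (ENSDARG00000013750), a glycolytic enzyme, was at 319.7 and 267 against 218 and 248. The 3 transcription factors were NR2E3, a nuclear receptor that sets rod against cone genes in mammals, at 213 and 221 in the pineal gland and 28.9 and 350.0 in the eye; ISL1, at 86.1 and 111 against 28.0 and 30.9; and ahr1b, a receptor of the aryl hydrocarbon family, at 23.8 and 26.9 against 66.6 and 36.8. Outside these roles, the neurofilament relative INA (ENSDARG00000011862) had 558 and 605 FPKM in the pineal gland and 232 and 191 in the eye. The elongation factor gene EEF1A1 (ENSDARG00000039502) had 495 and 310.4 against 315 and 257, with 28.7 and 25.7 in mixed tissue.

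Between the tissues, the median pineal minus eye difference of the members was 0.33 (log2 of FPKM + 1), beside -0.04 for all 21325 genes tested. In all 94 members were higher in the pineal gland and 47 in the eye, and 116 lay within 2-fold. The 5 furthest towards the pineal gland were zgc:194621 (1.99), rd3, COX4I2 (1.90), GNG11 (1.76) and ISL1 (1.70). Furthest towards the eye were LRIT1 ENSDARG00000019179 (-1.31), rp1l1a, ahr1b (-0.94), camk1ga (-0.93) and si:dkey-14o18.2 (-0.87). The role groups differed in this balance, with medians of 0.59 for transduction, 0.87 for the retinoid genes, 0.55 for outer segment and cilium, 0.24 for synapse and excitability and 0.17 for energy. Since the bound between the tissues trims the members on both sides, nothing further is read from these values.

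**Figure D2:**
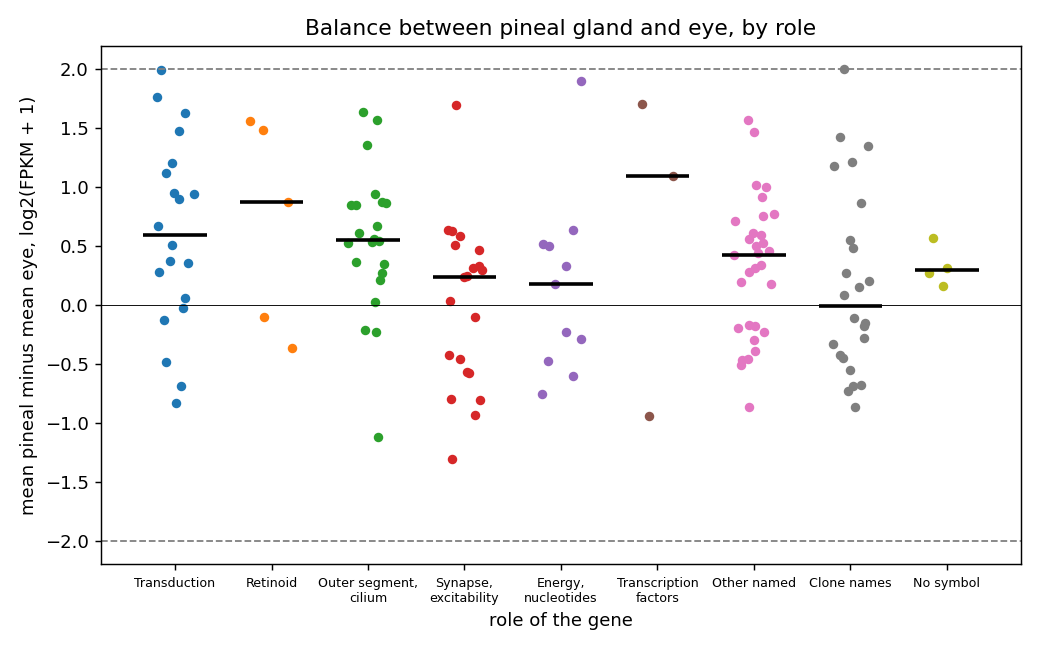
Mean pineal minus mean eye level on the log2(FPKM + 1) scale for each member (points), by role, with the median of each role as a bar and the rule's bounds of -2 and 2 as dashed lines. The points of the outer segment and cilium group lie above 0 for 19 of 22 genes, and those of the synapse group for 12 of 21.

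The edges of the set were not gaps. Just inside the level threshold were zgc:112294 (lowest value 20.3 FPKM), GJD2 (20.3) and scn12aa (20.9), and just outside it si:dkey-17e16.15 (19.9), mpv17l (18.9) and KERA (18.8), a cornea proteoglycan. At the gap of 3, apba1b (3.01), the no-symbol gene ENSDARG00000098850 (3.07) and ano2a (3.08) were in, and si:ch1073-82k10.1 (2.99), RNF157 (2.97) and NEURL1 (2.97) out. Beside the bound of 2 between the tissues, SLC24A1 (2.01), MSI1 (-2.04) and GNB3 (2.07) fell outside; SLC24A1 and GNB3 are themselves an exchanger and a transducin subunit of photoreceptors. Apart from the symbol families left out, 17 genes passed the other criteria but were too far towards the pineal gland and 3 too far towards the eye.

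Many members had a related gene with another pattern. By symbol, 72 of the members were matched to a gene with the same symbol or the a or b partner. There were 79 related genes in all, of which 10 were members and 69 were not. A member's own a or b was swapped only where it follows a digit. Partners of members such as sv2ba were therefore not looked for, and the counts are incomplete. Matched pairs with both copies in the set were those of ABCA4, CDHR1, LRIT1, rlbp1a and rlbp1b, and tulp1a and tulp1b. The members ppm1na and ppm1nb are such a pair too, outside these counts. Of the 69, 16 were at least 4-fold higher in the eye than in the pineal gland on the log2(FPKM + 1) scale and 5 at least 4-fold higher in the pineal gland. Another 13 reached 20 FPKM in all 4 libraries, 32 were below 20 FPKM in some library without such a difference, and 3 were under 1 FPKM in all 6 libraries. A related gene outside the set had to fail a criterion, so these counts describe the pairs and have no test. The share of all genes at this 4-fold cut was not computed. At 2-fold and an adjusted p under 0.05, limma called 14.1% of all genes tested higher in the eye and 9.25% higher in the pineal gland.

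The 2 widest pairs, those of PDC and grk1b, lay in transduction. Beside the even GNGT2, a second GNGT2 gene (ENSDARG00000103543) had 7.85 and 6.06 FPKM in the pineal gland and 367 and 249.7 in the eye. The second phosducin gene PDC (ENSDARG00000011886) had 1.86 and 0.847 against 341 and 140.2, and the opsin kinase gene GRK1 (ENSDARG00000058803), related to grk1b, 0.826 and 0.806 against 334 and 195. So the eye held both genes of each pair at high levels, and the pineal gland mainly the member. The opsin kinase GRK7 went the other way: its related gene ENSDARG00000055534 had 421 and 276 FPKM in the pineal gland and 15.1 and 9.70 in the eye. In the shutoff complex, the second RGS9 (ENSDARG00000037925) was at 12.9 and 20.8 against 65.6 and 110.4, and the related RGS9BP (ENSDARG00000086756) at 18.3 and 13.5 against 90.5 and 267.

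Other roles held such pairs too. The eye side of the matrix and axoneme genes was impg2b (ENSDARG00000100288), at 3.24 and 4.05 FPKM in the pineal gland and 31.8 and 88.6 in the eye, and rp1l1b (ENSDARG00000088377), at 1.81 and 5.16 against 49.9 and 154. The second MYO7A (ENSDARG00000099871), a myosin gene, was at 0.400 and 0.674 against 15.9 and 18.6. Among synaptic genes the second CPLX4 (ENSDARG00000059486) had 11.5 and 7.16 against 60.8 and 48.5, and the second SLC17A7 (ENSDARG00000016480) 16.6 and 10.9 against 96.4 and 99.9. On the pineal side stood a second connexin GJD2 (ENSDARG00000067999), at 102 and 49.4 FPKM against 6.88 and 18.2, a second TMEM237 (ENSDARG00000074248), at 171 and 69.1 against 16.5 and 27.5, and crb2b (ENSDARG00000060081), at 31.4 and 32.2 against 4.59 and 10.6.

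Some metabolic members were paired with a gene that was abundant in mixed tissue, and which organs of the mix gave that level was not tested. SLC25A3 (ENSDARG00000027424), the mitochondrial phosphate carrier, was at 0.210 and 0.248 FPKM in mixed tissue, and its related gene ENSDARG00000025566 at 130.4 and 92.6. For pdha1b, a pyruvate dehydrogenase subunit, mixed tissue had 0.143 and 0.282, and for pdha1a (ENSDARG00000012387) 89.1 and 73.2. The second ENO1 (ENSDARG00000022456) had 93.6 and 68.9 in mixed tissue, the member 8.71 and 7.42. In the pineal gland and the eye both genes of these pairs were present. The second SLC25A3 ranged from 61.9 to 102 FPKM there and pdha1a from 60.8 to 79.0. Reads that fit both copies of a pair could have been split or dropped in counting, which the sources used here do not state for these genes.

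**Figure D3:**
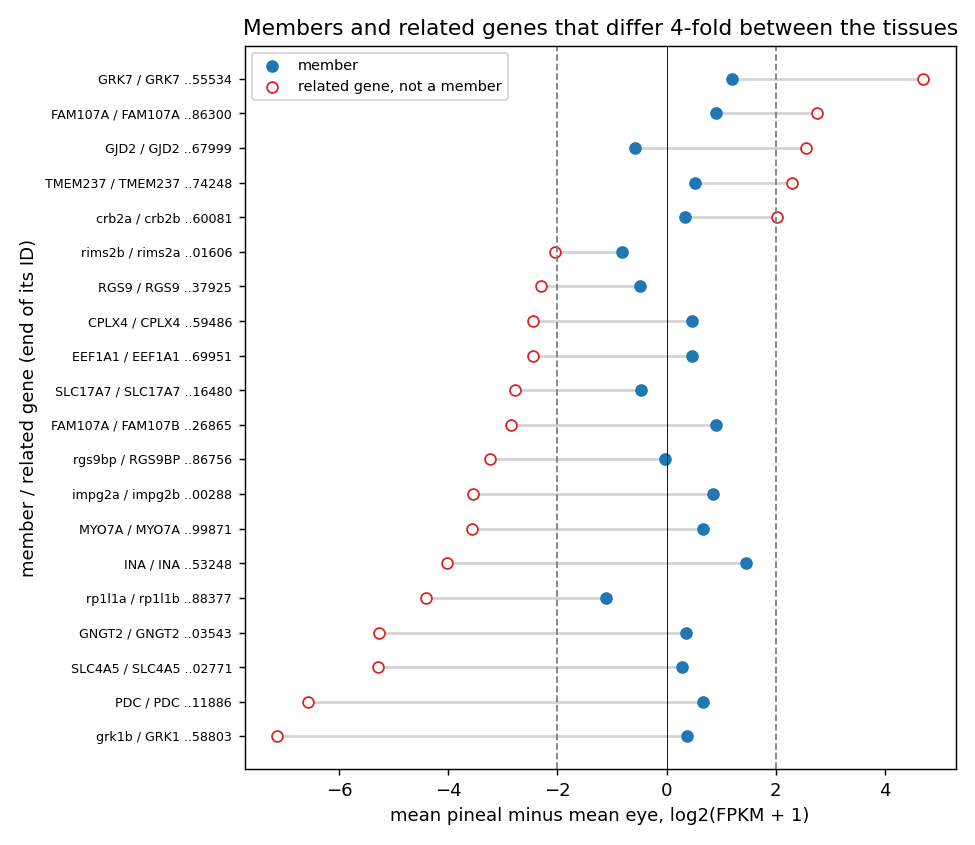
Mean pineal minus mean eye level on the log2(FPKM + 1) scale for 20 related genes outside the set that differ at least 4-fold between the tissues (open circles) and for the member each belongs to (filled circles), 1 pair per line, with dashed lines at -2 and 2. The open circles reach from -7.14 for GRK1 to 4.70 for GRK7, while every member lies within the bounds by rule.

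The wider pathways are read from lists written with earlier results known. They were tested by limma across all 21325 genes, and only the genes that are no member are counted here, since the rule fixed the calls of the members. Of all genes, 16.4% were called above and 30.1% below mixed tissue in the pineal gland, 20.7% and 28.5% in the eye, and 9.25% were called higher in the pineal gland than in the eye and 14.1% lower. Genes outside the set also had to fail its criteria, and the comparisons share libraries, so the counts are a description given side by side.

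Of 36 transduction partners outside the set, 21 were called above and 1 below mixed tissue in the pineal gland, and 30 above and 0 below in the eye. Set against the eye, 3 were higher in the pineal gland and 21 in the eye, with a median log2 difference of -1.33. The largest of these differences were GRK1 (ENSDARG00000058803, log2 -7.14, SE 0.26, limma adjusted p 0.000182) and, on the other side, GRK7 (ENSDARG00000055534, log2 4.70, SE 0.18, adjusted p 0.000205). Of 60 outer segment and cilium genes, 40 were above and 5 below mixed tissue in the pineal gland, 37 and 6 in the eye, and between the 2 tissues 13 were higher in the pineal gland and 13 in the eye. The disc rim gene ROM1 (ENSDARG00000026926) was among the last (log2 -7.61, SE 0.20, limma adjusted p 0.000158).

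Of 58 ribbon synapse and vesicle genes, 25 were called above and 6 below mixed tissue in the pineal gland, 50 and 0 in the eye, and between the 2 tissues 3 were higher in the pineal gland and 32 in the eye (median -1.22). Markers of other neurons, which a whole eye holds as well, differed in the same direction: of 23 inner retinal genes 0 were higher in the pineal gland and 15 in the eye (median -2.96), and of 20 brain genes 1 and 10 (median -1.69). Their part in the synaptic counts was not tested. The calcium-binding gene cabp4 of photoreceptor terminals was lower in the pineal gland by limma (log2 -6.39, SE 0.21, adjusted p 0.000162).

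For 41 retinoid genes, 18 were above and 11 below mixed tissue in the pineal gland, 17 and 10 in the eye, and 10 were higher in the pineal gland than in the eye and 5 lower. The largest pineal excess was LRAT (ENSDARG00000037278), which esterifies retinol (log2 5.65, SE 0.72, limma adjusted p 0.0038). The counts of 55 transcription factors in the same order were 20 and 7, 33 and 2, and 7 and 26, and those of 41 energy supply genes 11 and 10, 11 and 11, and 3 and 9. No gene of the melatonin synthesis list (29 tested) or the circadian clock list (34) was a member. Members were 141 of all 21325 genes tested. At that share lists this short would hold few or none, so nothing is read from their absence. The acetyltransferase and cryptochrome genes that the rule leaves out by symbol are on neither list. Of the melatonin genes 14 were called above and 5 below mixed tissue in the pineal gland, and 7 and 6 in the eye. Of the clock genes 6 were above and 2 below in the pineal gland, a share of higher calls near that of all genes, and 13 and 3 in the eye. That pineal count of 8 in all became 15 without either eye library and 5 without the pineal day library.

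Night against day, which the rule did not compare although it set limits in the libraries of both times, gave no call among the members. With 3 tissues, limma called 0 of 141, as it did 0% of all genes, and the smallest adjusted p was 0.666 (0.178 to 1.00 over the alternatives run). At an unadjusted p under 0.05 there were 13 members (9.22%), beside 7.06% of all genes. By the same adjusted cut, voom on the recovered reads called 0 members and 11 of all genes. At an unadjusted p under 0.05 it had 40 members. The share of all genes at that voom cut was not computed, so nothing is read from the 40. Those nearest to a call by limma's unadjusted p were 2 clone-named genes, then PALS1, higher at night in all 3 tissues (log2 0.90, SE 0.25, limma adjusted p 0.679), and ABCA4 ENSDARG00000057169, lower at night in all 3 (-0.51, SE 0.14, adjusted p 0.679). With 1 library per tissue and time these values rest on 2 residual degrees of freedom.

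Within a tissue, night and day are 1 library each, with no replicate check, and the 95% exact intervals below cover counting error only. In the pineal gland 7 members were at least 2-fold higher and 3 at least 2-fold lower in the night library, 7.09% of the members; of the 2348 genes above 20 FPKM, 1.83% were higher and 2.04% lower, 3.88% in all. Most members, 106, stayed within 1.5-fold, a cut at which the share of the 2348 genes was not computed. In the eye 14 were at least 2-fold higher and 13 lower, 19.1% of the members, beside 2.77% and 3.83% of the 2348 genes, 6.6% in all. Scaling by median ratios gave 12 and 17 members there, and the share of the 2348 genes under that scaling was not computed. The members' median log2 night minus day difference was 0.11 in the pineal gland, -0.02 in the eye and -0.00 in mixed tissue, beside -0.00, 0.06 and -0.00 for all genes tested. Sums of marker genes of other cells also differed between the 2 eye pools. The lens sum was 1650 by day and 707 at night (lower at night in all 11 genes with at least 5 FPKM). The sum of 21 brain genes was 666 and 1062 (higher at night in 15 of 19 such genes). For 16 pigment cell genes it was 260 and 592. Of 7 such pigment cell genes 5 were higher at night, but only 1 was at least 2-fold higher and 1 at least 2-fold lower. The sum of 23 inner retinal genes was 1903 and 1844. Between the pineal pools the sum of 10 erythrocyte genes was 268 and 166, that of the pigment cell genes 663 and 907 and that of the brain genes 648 and 743. Of the genes with at least 5 FPKM there, 7 of 8 erythrocyte genes were lower at night. Of the pigment cell genes 6 of 7 were higher, and of the brain genes 5 of 9. Of the 12 lens genes 3 were at 0 in the pineal day and 6 in the pineal night library. Their part in the differences below was not tested.

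In the pineal gland the largest named difference was that of the connexin GJD2, with 20.3 FPKM in the day and 93.2 in the night library, a ratio of 4.58 (95% interval 4.22 to 4.98). The eye had 46.2 and 94.4, a ratio of 2.04 (95% interval 1.94 to 2.15), so the 2 night libraries were alike and the pineal day library was low. The second GJD2 gene (ENSDARG00000067999), which is no member, went the other way in the pineal gland, with 102 by day and 49.4 at night. In the eye it had 6.88 and 18.2. A clone-named member, si:ch211-81a5.8, differed more than the GJD2 member, from 45.3 to 318 in the pineal gland (a ratio of 7.02, 95% interval 6.41 to 7.70). In the eye it went from 26.1 to 74.7 (a ratio of 2.86, 95% interval 2.56 to 3.20). PALS1 went from 22.8 to 47.0 in the pineal gland and from 22.9 to 63.3 in the eye. These 3 were the only members at least 2-fold higher at night in both tissues, and 0 were 2-fold lower in both. For the 2348 genes above 20 FPKM, the share at least 2-fold apart in both tissues, in the same or opposite directions, was not computed. Nothing is therefore read from these counts. Below 2-fold, some of the most abundant members had nearly the same ratio of night to day in both tissues. These were syt5a with 1.78 in the pineal gland and 1.87 in the eye, GUK1 with 1.74 and 1.73, COX4I2 with 1.30 and 1.32, and CPLX4 with 1.30 and 1.24. Other abundant members went opposite ways, among them GNG11 with 1.34 and 0.505, gnb1a with 1.15 and 0.519, and GNGT2 with 1.16 and 0.718. The others at least 2-fold higher at night in the pineal gland were LRIT2, the pentraxin gene NPTX2, from 35.6 to 79.6, and the clone-named zgc:193593, from 73.0 to 199, and si:dkey-224j12.3, from 42.7 to 99.1.

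Lower in the pineal night library were LRIT1 ENSDARG00000099406, with 154 FPKM by day and 64.0 at night (day over night 2.41, interval 2.26 to 2.56), zgc:110045, with 176 and 79.2, and a gene without a symbol, with 202 and 87.6. The adhesion gene NECTIN1 and both opsin kinases followed below the 2-fold line, with day over night ratios of 1.91 for NECTIN1 (68.9 and 36.1 FPKM), 1.88 for grk1b and 1.81 for GRK7. For grk1b the eye had the same direction, 199 by day and 81.3 at night (day over night 2.45, interval 2.35 to 2.57). For GRK7 it had the opposite, 107 and 218 (night over day ratio 2.03, interval 1.97 to 2.10). The related GRK7 gene (ENSDARG00000055534) was lower at night in both tissues. It had 421 and 276 in the pineal gland and 15.1 and 9.70 in the eye.

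The eye libraries differed most in NR2E3, with 28.9 FPKM in the day and 350.0 in the night library (a ratio of 12.1, 95% interval 11.3 to 13.0). The pineal libraries, with 213 and 221, lay between these values, and the eye day library stood alone as low. UBTD1, a ubiquitin-domain protein, had 27.5 and 97.6 in the eye and 159 and 153 in the pineal gland. The same pattern, a low eye day library beside 3 others at similar levels, was seen in impg2a, with 35.0 and 109 in the eye and 115 and 110.1 in the pineal gland. SHROOM2, which shapes the apical actin of epithelia, had 23.2 and 68.8 in the eye and 41.9 and 69.6 in the pineal gland. Of the clone-named genes, si:ch211-23l10.3 had 46.9 FPKM by day and 144 at night in the eye and 57.6 and 90.8 in the pineal gland, and zgc:112294 20.3 and 59.3 against 39.3 and 45.3. The cyclase gucy2d (2.53) and the calcium sensor ncaldb (2.77) were also more than 2-fold higher in the eye at night by that ratio, and CNRIP1 (2.72) too.

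Lower in the eye night library was above all ppm1na, a protein phosphatase gene, at 158 FPKM by day and 33.7 at night (day over night 4.68, interval 4.43 to 4.94); the pineal gland had 119.9 and 82.7. Its relative ppm1nb, also a member, went the other way in both tissues, with 53.3 and 106 in the eye and 94.6 and 161 in the pineal gland. The trafficking gene tulp1b had 105 and 30.8 in the eye (day over night 3.40, interval 3.16 to 3.66), camk1ga, a calcium-dependent kinase, 127 and 38.5 (3.30, interval 3.10 to 3.52), the retinal carrier rlbp1b 118.8 and 40.5 (2.94, interval 2.72 to 3.18) and the scaffold gene MPP4 62.8 and 22.7 (2.77, interval 2.50 to 3.06). In the pineal gland the ratio of day to night for these was 1.56, 0.951, 1.14 and 1.47. The other MPP4 genes, which are no members, were higher at night in the eye. ENSDARG00000076872 had 11.8 by day and 20.1 at night there, and ENSDARG00000009386 had 8.35 and 12.5. The clone-named si:ch211-105f12.2 had 118 and 43.8 in the eye and 122 and 142 in the pineal gland. The 2 cyclases were on opposite sides in the eye, since gucy2f had 81.9 by day and 33.9 at night while gucy2d had 86.5 and 218; in the pineal gland neither differed by 1.5-fold.

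Over the members, 46 were higher at night in both tissues, 33 lower in both, 39 higher only in the pineal gland, and 23 higher only in the eye. The same shares of the 2348 genes were not computed, so nothing is read from these counts. The correlation of the log2 ratios across the 141 genes, which are not independent replicates, was 0.315 (Pearson) and 0.315 (Spearman), beside 0.284 for the 2348 genes. All points share the same 4 libraries, each 1 pool. The only member at least 2-fold apart in opposite directions was LRIT2, at 27.6 FPKM by day and 62.4 at night in the pineal gland and 48.1 and 22.3 in the eye. In RefSeq's GRCz12tu annotation lrit2 lies between lrit1a and cdhr1a, with no gene between, and both of those symbols belong to members. Because LRIT1 and CDHR1 each name 2 member IDs, which of them are these neighbours is not known here. LRIT1 ENSDARG00000099406 was lower at night in the pineal gland and LRIT1 ENSDARG00000019179 in the eye (92.1 FPKM by day and 44.5 at night).

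**Figure D4:**
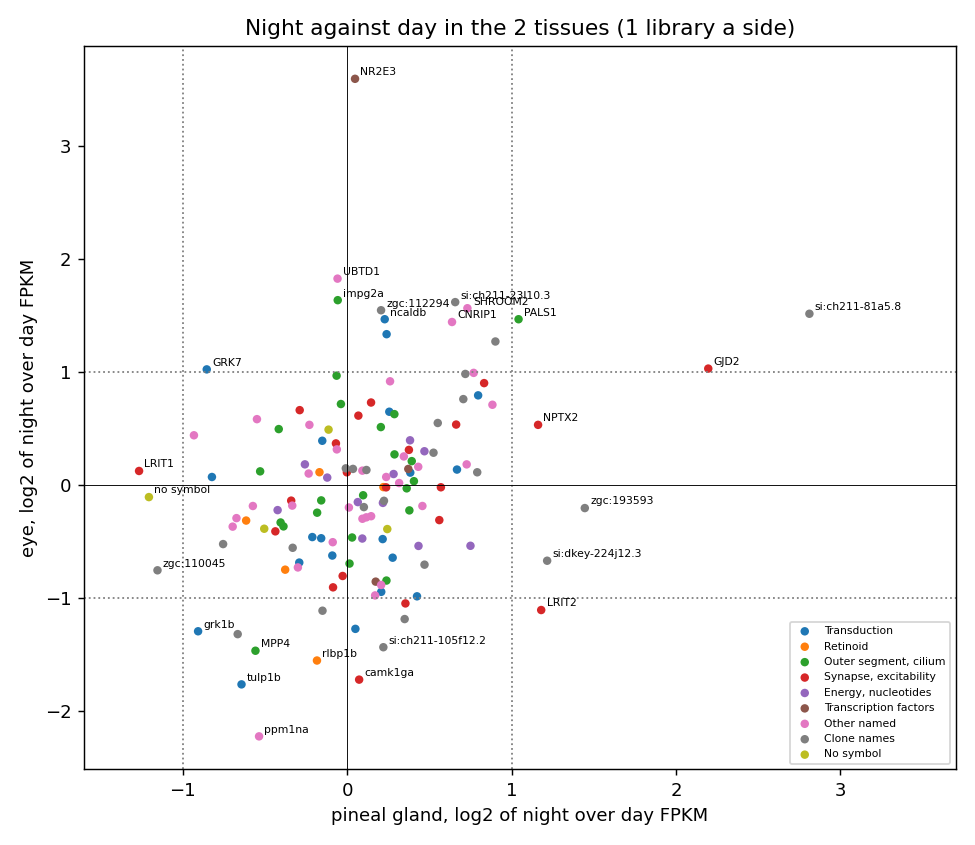
Log2 of night over day FPKM in the pineal gland (x axis) and the eye (y axis) for the 141 members, coloured by role, with dotted lines at 2-fold; each value compares 1 library with 1 library. GJD2, PALS1 and si:ch211-81a5.8 lie beyond 2-fold on both axes at upper right, LRIT2 beyond it at lower right, and NR2E3 alone at the top, with a pineal ratio of 1.03.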

How the data were processed

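The authors deposited FPKM values for 32105 genes in 6 libraries, with 3 further columns of means that were not used. The submitters' processing notes name the build danRer10, the aligner STAR (version 2.3.0e), FastQC, featureCounts of Subread, and DESeq2. The annotation release and the counting of shared reads are not given in the sources used here. Symbols came from a table of gene IDs and were found for 26269 IDs.

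Whole reads were recovered from the FPKM steps for 27232 of 27233 genes above 0, and 146126 of 146167 values were rebuilt within 1e-06. A value counted as whole within 0.002 reads. Library totals were 7949224 to 15950819, of which genes in the table hold 99.43% to 99.65%. They may be reads or fragments, so intervals (exact, Clopper-Pearson, 95%) cover counting error only and may be too narrow.

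Night against day was tested two-sided on log2(FPKM + 1) by limma (3.58.1, R 4.3.3), with terms for tissue and time and trended variances (degrees of freedom 2 residual, 3.46 prior), over 21325 genes with at least 1 FPKM in 2 libraries. A call needed a Benjamini-Hochberg adjusted p under 0.05 and 2-fold. Replicates of a tissue are a day and a night pool, so p-values measure only how far the pools stray from additive effects, which may be technical. The same fit served the pathway lists, of which the report counts the genes outside the set. The test was tried on simulated data first. Tables were joined in Python 3.11.15 with pandas 2.3.3.

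The members and lists were chosen with earlier results of these data known, and roles were assigned by hand with the values in view. Genes given with values by rule were the 8 highest members, the 6 largest and 6 smallest night to day ratios in each tissue, the 5 furthest towards each tissue, 3 on either side of each threshold and related genes. Related genes have the same symbol or the a or b partner, the letter being added to the symbol or swapped where it follows a digit. Alternatives varied the thresholds, the pseudocount, the filter, the scaling, the libraries and the test. Neighbours came from RefSeq's GRCz12tu table, with 104 members matched. Of the members 1 is counted but not reported by name here.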

Additional observations from a re-analysis of the deposited data

Results flagged for a closer look

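LRIT2 (ENSDARG00000030626) was singled out because its night and day libraries moved in opposite directions in the 2 tissues, higher at night in the pineal gland and lower at night in the eye, each by at least 2-fold. The difference between the tissues' log2 ratios of night to day, pineal minus eye, was 2.29 (unrounded 2.287). Each ratio compares 1 library with 1 library, and the difference between the tissues was not tested. The lens, brain and pigment cell sums given in the report also differed between the 2 eye pools, and their part in this value was not tested.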

How the results depend on the processing

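The set held 83 genes with a minimum of 40 FPKM and 249 with a gap of 2 in place of 3. The other thresholds, pseudocount and scalings gave 100 to 170 genes, leaving out a library gave 145 to 157 (136 to 141 of the 141 shared), and leaving out no symbol, an alternative chosen after the data were seen, gave 165. At 1.5-fold 35 members differed between night and day in the pineal gland (22 higher and 13 lower at night) and 58 in the eye (28 and 30). At 3-fold these were 2 and 7. The 2-fold eye count of 27, split 14 and 13, became 29 under both other scalings, split 12 and 17 with median-ratio factors and 17 and 12 with quantile normalization. Shares of the 2348 genes above 20 FPKM at 1.5-fold, at 3-fold or under these scalings were not computed. These counts are therefore not read as a trait of the set. The members' eye median of -0.02 became -0.12 with median-ratio factors and 0.030 with quantile normalization, while that of all genes went from 0.06 to 0.00 in both; the cause was not tested. No member was called between night and day (0 by limma or voom) in any alternative run, including each library left out. Pathway list calls, members included, stayed within 1.5 times, at 230 to 276 for pineal against mixed, 266 to 300 for eye against mixed and 137 to 185 for pineal against eye. Counts of single lists moved beyond that in 13 of 264 cases, all of them the clock list. Of 72 single night to day ratios 1 moved, that of NR2E3 in the eye, from 3.60 to 3.89 (log2) with quantile normalization. The planned search for promoter motifs was not run, for want of promoter sequences. The fit has terms for tissue and time, so day and night were already compared within each tissue. With 1 library per tissue and time, no further pairing was possible. The mixed libraries were the deepest (15708307 and 15950819 reads). Many members still had a few reads or none there, so their gap rests on the pseudocount.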
